A study of Homo sapiens with 9 samples.

Results

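The MutS and MutL homologs are the genes of the eukaryotic mismatch repair family, and 7 of them, MSH3, MSH4, MSH5, MSH6, MLH3, PMS1 and PMS2, were examined among the 58735 genes of an RNA-seq table. The 7 genes were chosen by name, and the set was chosen because MSH5 had the largest fall among the genes displayed by the study. The values of MSH5 are therefore given as a description, with no test, while the other members were tested. RNA was sequenced from KHM-5M, an established human thyroid cancer cell line, kept for 24 h with DMSO, which is the solvent control, with 0.3 μM of YK-4-279 or with 1 μM of YK-4-279. YK-4-279 is a small molecule described as an inhibitor of ETS family transcription factors. There were 3 samples in each of the 3 groups and 9 samples in all, and the cells in every group were of the same line.

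MutS homologs work in pairs that clamp onto DNA. MSH6 and MSH3 are the mismatch-reading subunits of repair complexes, MSH6 for base mismatches and short loops and MSH3 mainly for larger loops left by DNA polymerases. MSH4 and MSH5 pair with each other and are best known from germ cells, where they hold the recombination intermediates that become meiotic crossovers. The MutL homologs are recruited next. PMS2 and MLH3 carry an endonuclease activity, used mainly in mismatch repair by PMS2 and mainly in meiotic crossing over by MLH3, and the part of PMS1 in repair is less clear.

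Counts summed to between 16903251 and 18238884 per sample, so that a count of 0 allowed up to 3 counts, or 0.164 to 0.177 CPM (counts divided by the total of their library), and this limit is for counting error alone. Of 8 markers of thyroid follicular cells, PAX8 had 2742 to 3660 counts per sample and HHEX 231 to 320, whereas TG, TSHR and SLC5A5 had at most 4 counts. The epithelial keratins KRT8 and KRT18 were abundant, with 22002 to 24344 and 7028 to 8131 counts. Of the other epithelial markers, KRT7 had 1216 to 1631 counts, KRT19 66 to 104, EPCAM 89 to 126 and CDH1 at most 5. The sums of markers that follow are in CPM after scaling of the libraries by TMM. The 9 germ cell markers summed to between 0.384 and 1.38 CPM per sample, with SYCP1, DAZL, STRA8, TDRD1 and PIWIL1 at 0 in all samples. Fibroblast markers summed to 396 to 567 CPM in DMSO, 332 to 515 CPM at 0.3 μM and 352 to 407 CPM at 1 μM. COL1A1, at 5579 to 9593 counts, made up nearly all of this sum. LUM had 142 to 238 counts, and COL1A2, COL3A1 and DCN had at most 10 counts in any sample. COL1A1 fell by 0.41 on the log2 scale at 1 μM (edgeR, adjusted p = 0.0132), although its 1 μM and DMSO samples overlapped. PDGFRA, with 3 to 29 counts per sample, rose by 1.62 (edgeR, adjusted p = 0.0159). It passed the filter on low counts through its 1 μM samples, which favours a rise. The part of these genes in the results was not tested. Leukocyte markers summed to 0.495 to 1.28 CPM in DMSO, 0.460 to 1.22 CPM at 0.3 μM and 1.80 to 2.14 CPM at 1 μM, where the 1 μM samples stood above the rest. CD14, at 8 to 37 counts, made up nearly all of this sum, and the leukocyte markers PTPRC and CD3E had at most 1 count in any sample. Each of the 9 pairs of samples within a group differed by more than the sampling noise, with a chi-square per degree of freedom of 3.39 to 11.8, so none was treated as a copy of another.

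ETS factors bind a core of 4 bases, GGAA, and the stretches before the starts of MSH5 and PMS2 are shown here with this core in capitals, because MSH5 had the largest fall and PMS2 the largest rise in fitted value among the members at 1 μM. They are the longest parts of the RefSeq promoter windows around each start (GRCh38.p14) that lie outside annotated exons, 5′ to 3′ along each gene. The MSH5 stretch is chr6:31739772-31739947 on the plus strand and the PMS2 stretch is chr7:6009131-6009244 on the minus strand.
MSH5: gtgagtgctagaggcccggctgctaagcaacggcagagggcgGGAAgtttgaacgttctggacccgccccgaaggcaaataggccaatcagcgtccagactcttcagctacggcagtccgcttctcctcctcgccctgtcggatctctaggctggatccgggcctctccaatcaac
PMS2: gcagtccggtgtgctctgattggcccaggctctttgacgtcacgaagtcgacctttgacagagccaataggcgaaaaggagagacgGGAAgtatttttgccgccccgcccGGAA

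The MSH5 stretch held 1 GGAA and the PMS2 stretch 2, each counted along the strand shown. The longer core CCGGAA, which contains GGAA, was found in the PMS2 stretch and not in the MSH5 stretch. Over both strands, GGAA was in 95.5% of 35116 promoter windows of all genes and CCGGAA in 17.2%. These shares are for whole windows, which are longer than the stretches shown, so they are not like for like with the counts above. Among the members, CCGGAA was found in the windows of PMS2 alone. A match describes the letters and does not show that a factor was bound there.

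MSH5 (ENSG00000204410, chromosome 6 from 31739948 to 31762834 on GRCh38, plus strand) had 197, 209 and 185 counts in the DMSO samples, 138, 159 and 149 at 0.3 μM and 83, 59 and 59 at 1 μM. The 3 groups did not overlap in scaled values, with each sample at 1 μM below each sample at 0.3 μM and these below each DMSO sample. Of all genes tested, 4.23% were lower without overlap at 0.3 μM, 16.3% at 1 μM and 14.8% between the doses, and nothing is read from this because MSH5 was chosen on these values. After scaling of the libraries by TMM, the mean was 11.3 ± 0.348 CPM (SD, n = 3) in DMSO, 8.39 ± 0.539 CPM at 0.3 μM and 3.84 ± 0.621 CPM at 1 μM. These levels at 0.3 μM and 1 μM were 74.4% and 34% of the DMSO mean. The fitted log2 fold change against DMSO was -0.43 (standard error 0.13) at 0.3 μM and -1.58 (standard error 0.15) at 1 μM, and between the doses it was -1.13 (standard error 0.16). Both comparisons against DMSO used the same DMSO samples. In bulk RNA, fewer cells that express a gene and less RNA of it per cell cannot be told apart.

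MSH4 (ENSG00000057468, chromosome 1 from 75796882 to 75913238), the pairing partner of MSH5, was close to the limit of detection. It had 5, 0 and 5 counts in DMSO, 1, 1 and 0 at 0.3 μM and 1, 2 and 0 at 1 μM, and it did not pass the filter on low counts. The transcript of MSH5 was thus measured in all 9 samples while that of its partner was at or near 0 in each of them.

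**Figure D1:**
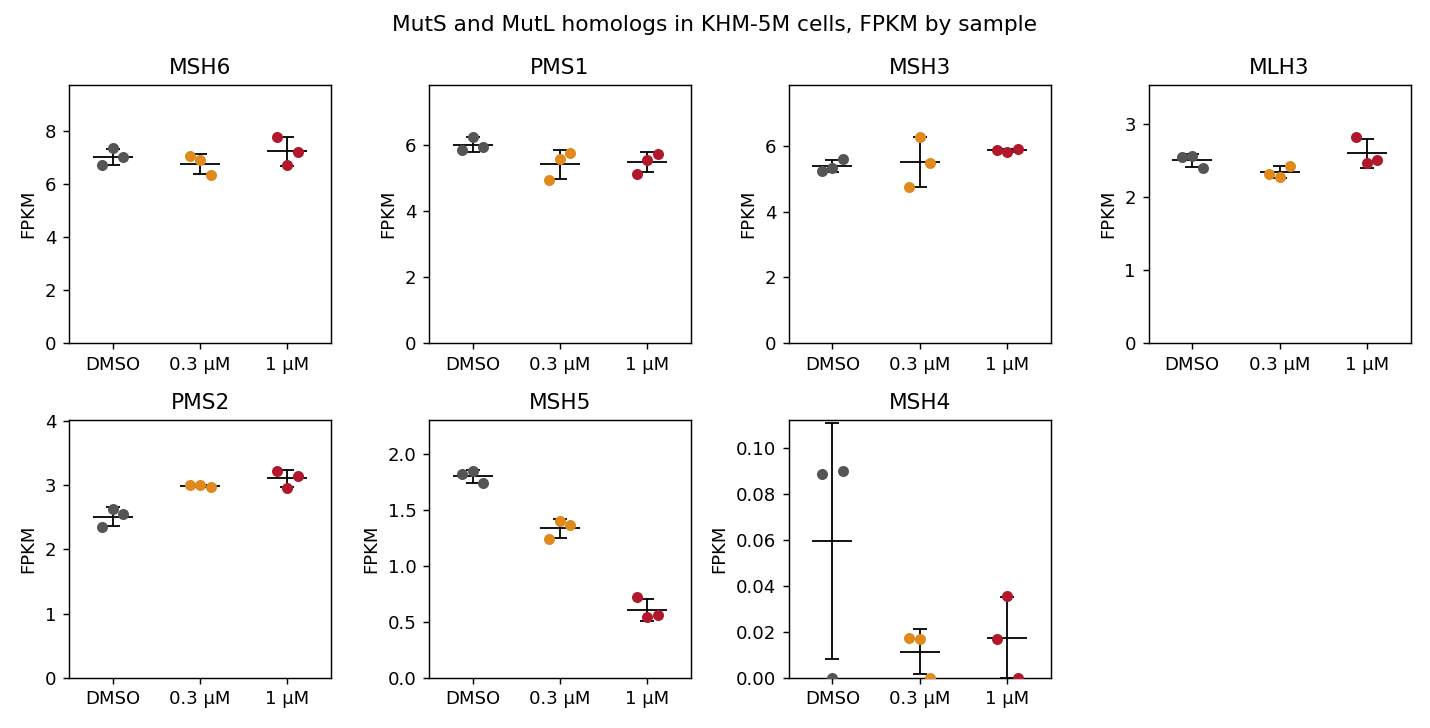
FPKM of the 7 homologs, where FPKM is counts scaled to gene length and library size, for each sample (points) in DMSO, 0.3 μM and 1 μM of YK-4-279, with the mean (horizontal bar) and SD over 3 samples; each panel has its own linear axis from 0. MSH5 steps down from a mean of 1.80 to 1.34 and 0.610 without overlap of the groups, PMS2 sits higher in both treated groups, and MSH4 stays below 0.1 in every sample.

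The MSH5 locus limits what its count measures. In the GENCODE v44 annotation, MSH5 runs on the same strand into SAPCD1, and a readthrough gene, MSH5-SAPCD1, joins both. Of 6284 exonic bases of MSH5, 2788 (44.4%) were also exons of MSH5-SAPCD1, and these held 2553 of its 2571 coding bases (99.3%). Of the 3496 exonic bases not shared, 3153 (90.2%) lay in exons of transcripts other than the protein-coding ones, and 1098 (31.4%) in exons of retained-intron transcripts only. Overlap with SAPCD1 itself was 21 bases, and 35 bases overlapped exons of CLIC1, a neighbour on the opposite strand. The labels and methods do not state the strand setting of the counting, how reads on shared exons were assigned or which annotation release was used. The share of the MSH5 count that came from its coding exons is therefore not known.

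MSH5-SAPCD1 had 0, 0 and 2 counts in DMSO, 1, 2 and 0 at 0.3 μM and 0 in each sample at 1 μM. SAPCD1, whose exons are shared with the readthrough gene over 73.9% of their length, had 19, 44 and 20 counts in DMSO, 19, 14 and 20 at 0.3 μM and 3, 9 and 8 at 1 μM. The samples at 1 μM were all below those of the other groups, and the second DMSO sample stood above the rest. SAPCD1 fell at 1 μM against DMSO, and its fitted log2 change was -2.04 (standard error 0.47, edgeR's quasi-likelihood test, adjusted p = 0.00874). The adjusted p stayed between 0.00879 and 0.0446 with each sample left out in turn. However, SAPCD1 passed the filter on low counts through its DMSO samples, where it was higher, which favours a fall. At 0.3 μM its log2 fold change was -0.66 (adjusted p = 0.995). When MSH5, SAPCD1 and MSH5-SAPCD1 were summed, the log2 fold change of the sum was -0.46 at 0.3 μM and -1.63 at 1 μM. SAPCD1 made up 8.80% to 17.4% of this sum in DMSO and 3.49% to 13.2% at 1 μM.

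On the other side of the MSH5 start lies CLIC1, a chloride channel family gene that begins 185 bases away on the opposite strand by the deposited coordinates. CLIC1 had 15715 to 16147 counts in DMSO, 15731 to 17580 at 0.3 μM and 17623 to 19186 at 1 μM. Its log2 fold change at 1 μM was 0.17 (standard error 0.058, edgeR, adjusted p = 0.0507), and DESeq2 gave an adjusted p of 0.0120. Of 25 listed genes around MSH5, 17 were tested at 1 μM, and their median log2 fold change was 0.0024. Beside SAPCD1, which fell, HSPA1A, HSPA1B and NEU1 rose, by 0.36, 0.59 and 0.39 on the log2 scale (edgeR, adjusted p = 0.00411, 0.000195 and 0.00245). Thus 4 of 17 (23.5%) were called, against 17.6% of all genes tested. This number includes SAPCD1, which passed the filter through its DMSO samples. HSPA1A and HSPA1B encode heat shock proteins and are near-identical copies, so the division of reads between them is uncertain.

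The genes whose 9-sample profile lay nearest to that of MSH5 were LTB4R, a leukotriene B4 receptor, followed by ANKRD36, SEC31B, SGSM3 and ST3GAL3, a sialyltransferase. Likeness was the root mean square difference of log2(TMM-scaled CPM + 0.5) less the DMSO mean, over 9 samples and among 12869 protein-coding genes. This distance was 0.15 for LTB4R, 0.19 for ANKRD36, 0.22 for SEC31B, 0.23 for SGSM3 and 0.23 for ST3GAL3. LTB4R had 211, 222 and 211 counts in DMSO, 197, 189 and 182 at 0.3 μM and 96, 66 and 71 at 1 μM, and SGSM3 had a mean of 13 counts only. SAPCD1 was at rank 56, with a distance of 0.39. Of the other members, PMS1 was nearest, at rank 2349, and PMS2 farthest, at rank 11750. These 5 genes were picked on all 9 samples, so their likeness is a description.

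**Figure D2:**
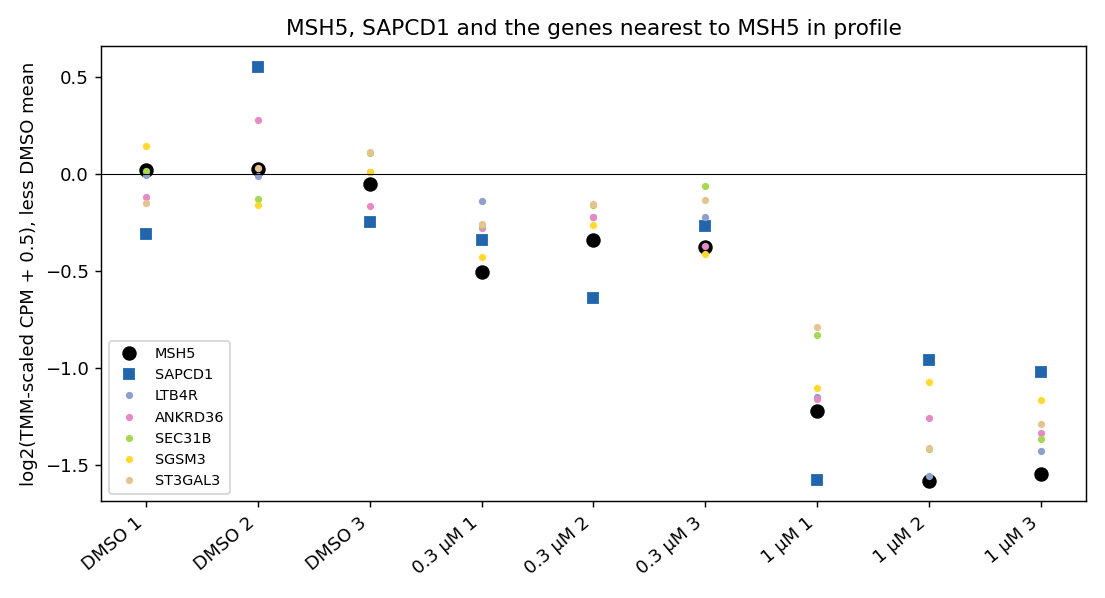
Level of MSH5, of SAPCD1 and of the 5 genes nearest to MSH5 in each of the 9 samples, as log2(TMM-scaled CPM + 0.5) less the mean of the DMSO samples, on a linear axis of log2 values. All 7 genes sit lower in the 3 samples at 1 μM than in the other samples, and SAPCD1 (squares), with 3 to 44 counts per sample, is the most scattered in DMSO.

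MSH6 and MSH3, the members that read mismatches, were not called in any of the 3 comparisons. MSH6 (ENSG00000116062, chromosome 2 from 47695530 to 47810101), the most abundant member per length, had 1283, 1466 and 1316 counts in DMSO, 1387, 1379 and 1218 at 0.3 μM and 1577, 1278 and 1344 at 1 μM. The 3 groups of MSH6 overlapped. The log2 fold change at 1 μM was 0.026 (95% interval -0.12 to 0.17, edgeR, adjusted p = 0.839). Of its exonic bases, 22.7% overlap exons of FBXO11 on the opposite strand in GENCODE v44, and FBXO11 had a log2 fold change of -0.021 (edgeR, adjusted p = 0.905).

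MSH3 (ENSG00000113318, chromosome 5 from 80654648 to 80876460) had 428, 455 and 451 counts in DMSO, 401, 537 and 452 at 0.3 μM and 509, 475 and 470 at 1 μM. The 3 samples at 1 μM lay above the DMSO samples, and the 0.3 μM samples spanned both groups. The log2 fold change at 1 μM was 0.10 (95% interval -0.064 to 0.27, edgeR, adjusted p = 0.390).

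Among the MutL homologs, PMS1 (ENSG00000064933, chromosome 2 from 189784085 to 189877629) had 553, 619 and 552 counts in DMSO, 480, 551 and 550 at 0.3 μM and 515, 525 and 528 at 1 μM. On the scaled values every treated sample lay below every DMSO sample. The log2 fold change was -0.15 at 0.3 μM (95% interval -0.35 to 0.043, edgeR, adjusted p = 0.995) and -0.15 at 1 μM (95% interval -0.32 to 0.016, edgeR, adjusted p = 0.200). ORMDL1, a regulator of sphingolipid synthesis that starts 286 bases from PMS1 on the opposite strand, stood at 0.0095 on the log2 scale at 1 μM against DMSO (edgeR, adjusted p = 0.959).

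MLH3 (ENSG00000119684, chromosome 14 from 75013764 to 75051532) had 369, 389 and 343 counts in DMSO, 347, 346 and 356 at 0.3 μM and 436, 357 and 355 at 1 μM. The first 1 μM sample was the highest of all, and the 1 μM group overlapped DMSO. The log2 fold change at 1 μM was 0.039 (95% interval -0.15 to 0.23, edgeR, adjusted p = 0.814).

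PMS2 (ENSG00000122512, chromosome 7 from 5973239 to 6009125, minus strand) had 160, 188 and 171 counts in DMSO, 211, 214 and 205 at 0.3 μM and 233, 202 and 209 at 1 μM. All treated samples lay above all DMSO samples, and the doses overlapped. The log2 fold change was 0.25 at 0.3 μM (95% interval -0.0058 to 0.51, edgeR, adjusted p = 0.995) and 0.29 at 1 μM (95% interval 0.053 to 0.53, edgeR, adjusted p = 0.0862). At 1 μM the unadjusted p was 0.0200, and the adjusted p lay between 0.0685 and 0.194 over the alternatives. AIMP2, a component of the aminoacyl-tRNA synthetase complex that starts 120 bases from PMS2 on the opposite strand, had 187 to 219 counts in DMSO, 199 to 217 at 0.3 μM and 260 to 308 at 1 μM. It rose at 1 μM by 0.45 on the log2 scale (standard error 0.11, edgeR, adjusted p = 0.0122), and leaving out 1 sample lost the call in 2 of 6 fits, with the highest adjusted p at 0.0554 without the third DMSO sample.

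**Figure D3:**
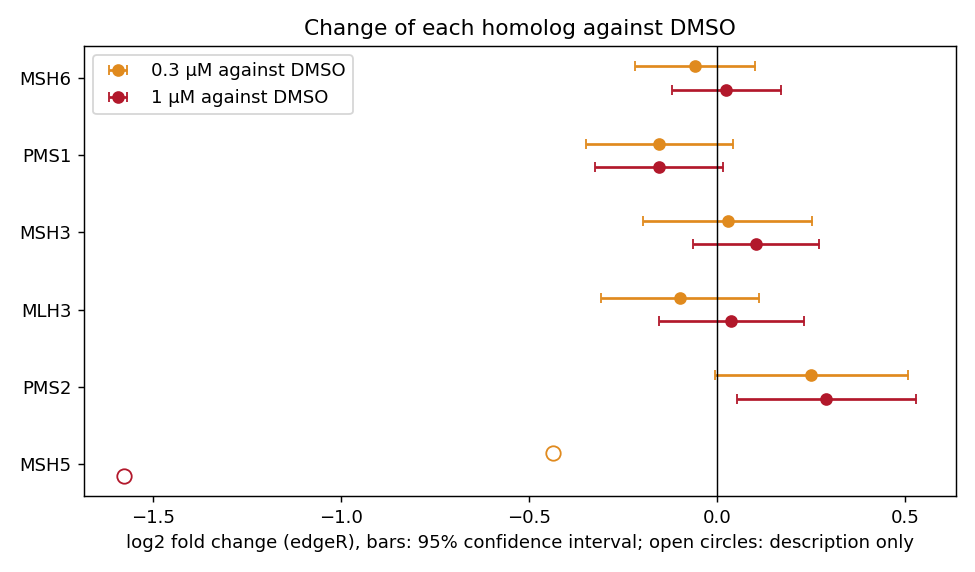
Fitted log2 fold change against DMSO of the 6 homologs that passed the filter, at 0.3 μM and 1 μM of YK-4-279, with 95% confidence intervals from edgeR for the tested members; MSH5 is drawn as open circles without an interval, as a description. The intervals of MSH6, PMS1, MSH3 and MLH3 cross 0 at both doses, that of PMS2 lies above 0 at 1 μM only, and MSH5 lies at -0.43 and -1.58.

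Of the 6 members other than MSH5, 5 passed the filter on low counts and MSH4 did not. By edgeR the number called at an adjusted p under 0.05 was 0 of 5 at 0.3 μM, 0 of 5 at 1 μM and 0 of 5 between the doses, against 0.0%, 17.6% and 12.6% of all genes tested, and DESeq2 also called 0 in each. At an unadjusted p under 0.05 the numbers were 0, 1 and 0, beside 3.77%, 31.9% and 27.6% of all genes, and the 1 was PMS2. The groups did not overlap for 2 of 5 members at 0.3 μM (PMS1 lower and PMS2 higher), for 3 of 5 at 1 μM (PMS1 lower, MSH3 and PMS2 higher) and for 1 of 5 between the doses (MLH3 higher), against 8.47%, 37.4% and 31.9% of all genes tested. Genes that lay higher without overlap were 4.24%, 21.1% and 17.0% of those tested. An exact two-sided permutation test of a gene with 3 samples in each group has 0.1 as its smallest p.

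PMS2 has near-identical copies in the genome, and their reads can be divided differently by counting programs. Of 14 copies in the table, 5 were tested at 1 μM. PMS2P1 had 218, 272 and 266 counts in DMSO, 219, 197 and 198 at 0.3 μM and 154, 175 and 199 at 1 μM. It fell at 1 μM by 0.53 on the log2 scale (standard error 0.14, edgeR, adjusted p = 0.0149), and the call was lost in 2 of 6 fits that left out 1 sample, with the highest adjusted p at 0.0741 without the first 1 μM sample. When PMS2 and its copies were summed, the log2 fold change was -0.048 at 0.3 μM (edgeR, adjusted p = 0.995) and -0.15 at 1 μM (95% interval -0.32 to 0.011, edgeR, adjusted p = 0.188), opposite in sign to that of PMS2 alone.

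PMS2 made up 24.5%, 25.3% and 23.8% of the counts of PMS2 and its copies in the DMSO samples. The share was 30.4%, 31.5% and 28.8% at 0.3 μM and 34.3%, 33.8% and 32.2% at 1 μM. The 3 groups did not overlap, and each of the 3 pairwise differences had an exact two-sided permutation p of 0.1 (adjusted over the 3 comparisons, 0.1), the smallest that 3 samples against 3 can give. The difference in share against DMSO was 5.70 percentage points at 0.3 μM and 8.86 at 1 μM.

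**Figure D4:**
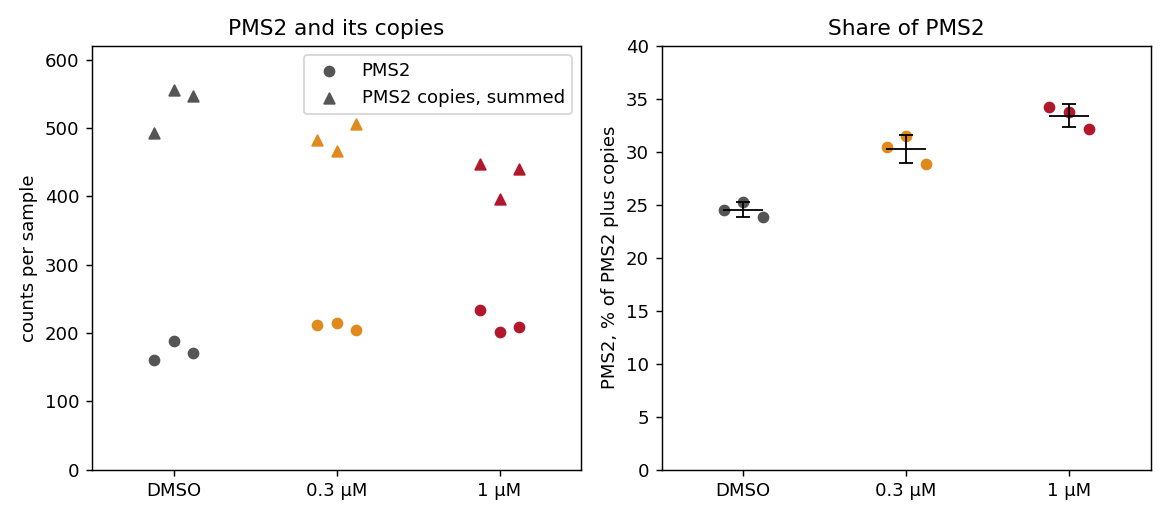
Left, counts per sample of PMS2 (circles) and of its copies summed (triangles) in DMSO, 0.3 μM and 1 μM of YK-4-279; right, PMS2 as a percent of PMS2 plus copies, with the mean and SD over 3 samples, both on linear axes from 0. The share is 23.8% to 25.3% in DMSO and 32.2% to 34.3% at 1 μM, while the copies together go from between 492 and 555 counts to between 396 and 447.

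Levels of the members were compared per length, as FPKM. In DMSO the order was MSH6 (7.04 ± 0.307, SD, n = 3), PMS1 (6.01 ± 0.214), MSH3 (5.40 ± 0.192), PMS2 (2.51 ± 0.147), MLH3 (2.51 ± 0.0884), MSH5 (1.80 ± 0.0574) and MSH4 (0.0594 ± 0.0514). PMS2 and MLH3 overlapped in DMSO, and the other neighbours in this order did not. At 0.3 μM MSH3 (5.51) and PMS1 (5.42) overlapped, PMS2 (2.99) was above MLH3 (2.35), and MSH5 was at 1.34. At 1 μM MSH6 (7.25), MSH3 (5.87), PMS1 (5.47), PMS2 (3.11), MLH3 (2.60), MSH5 (0.610) and MSH4 (0.0173) followed each other with no overlap of neighbours. By these values MSH5 was the second lowest member in each group. The lengths are those deposited with the counts, and for MSH6 and PMS2 they are shorter than the exonic length in GENCODE v44 (10993 against 17722 bases and 3936 against 11237 bases), so the order depends on the annotation. How reads on exons that MSH5 shares with MSH5-SAPCD1 were assigned is not known. The FPKM of MSH5, and with it its place in the order, is therefore uncertain too.

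Mismatch repair needs further proteins that excise and refill the strand, and all 23 listed partner genes were tested. HELLS, SETD2, HMGB1 and MCM9 are on this list but do not themselves excise or refill the strand. At 1 μM 10 of the 23 (43.5%) fell and 0 rose, against 9.95% of all genes that fell and 7.67% that rose. Their median log2 fold change was -0.16, beside -0.0083 over all genes. HELLS, a chromatin remodelling ATPase, had 957, 1017 and 1021 counts in DMSO and 784, 544 and 617 at 1 μM, a log2 fold change of -0.65 (standard error 0.094, edgeR, adjusted p = 0.000434). EXO1, the exonuclease that removes the mismatched strand, had a log2 fold change of -0.51 (edgeR, adjusted p = 0.00189), and POLE, the catalytic subunit of DNA polymerase epsilon, one of -0.51 (edgeR, adjusted p = 0.000123).

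The other 7 that fell were POLE2, LIG1, RFC5, RFC4, POLD3, POLD1 and PCNA, which are polymerase subunits, DNA ligase I, clamp loader subunits and the sliding clamp, and these act in general DNA replication as well as in repair. The single-strand binding subunits had log2 fold changes of -0.022 (RPA1), 0.0093 (RPA2) and -0.023 (RPA3), with adjusted p-values from edgeR of 0.840, 0.943 and 0.898. Between the doses 7 of the 23 fell and 0 rose, with a median of -0.13, against 6.75% and 5.85% of all genes. At 0.3 μM the number called was 0 by edgeR and by DESeq2. By edgeR 2 of the 23, HELLS and HMGB1, had an unadjusted p under 0.05, beside 3.77% of all genes tested. The mismatch readers MSH6 and MSH3 and the endonuclease PMS2 were not among the called genes, with intervals at 1 μM as given above.

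The meiotic recombination genes are the setting in which MSH4 and MSH5 are best known. Of 43 listed genes, 39 were found in the table and 18 were tested at 1 μM. Among those not tested, SPO11, which makes the breaks that start meiotic recombination, and the crossover factor RNF212 were at 0 in all 9 samples, and TEX11 and HFM1 had at most 2 counts. At 1 μM 6 of the 18 (33.3%) fell and 0 rose, against 9.95% and 7.67% of all genes, and the median was -0.45, beside -0.0083 over all genes. Filtered genes of low count are not represented in these numbers. The filter keeps a gene with enough counts in either compared group. Genes of low count that pass through DMSO are thus favoured to fall, and the median includes such genes.

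CNTD1, a cyclin-like crossover factor, had 17, 22 and 29 counts in DMSO and 10, 8 and 12 at 1 μM, a log2 fold change of -1.19 (standard error 0.37, edgeR, adjusted p = 0.0396). This call was kept in 1 of 6 fits that left out 1 sample, and the highest adjusted p was 0.174 without the third DMSO sample. CNTD1 passed the filter through its DMSO samples, where it was higher, which favours a fall. FANCM, a translocase of the Fanconi anaemia pathway, had a log2 fold change of -0.66 (edgeR, adjusted p = 0.00165), and EME1, a subunit of a structure-specific nuclease, one of -0.65 (edgeR, adjusted p = 0.000703). The others that fell were BRIP1, MND1 and TOPBP1, and the call of TOPBP1 was kept in 3 of 6 fits that left out 1 sample, with the highest adjusted p from edgeR at 0.0599 without the third 1 μM sample. FANCM, EME1, BRIP1 and TOPBP1 are known to act in DNA repair of dividing somatic cells too. CCNB1IP1, a crossover factor, had a log2 fold change of -0.15 (95% interval -0.33 to 0.032, edgeR, adjusted p = 0.246), and the recombinase DMC1 one of -0.57 (95% interval -1.41 to 0.27, edgeR, adjusted p = 0.346).

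**Figure D5:**
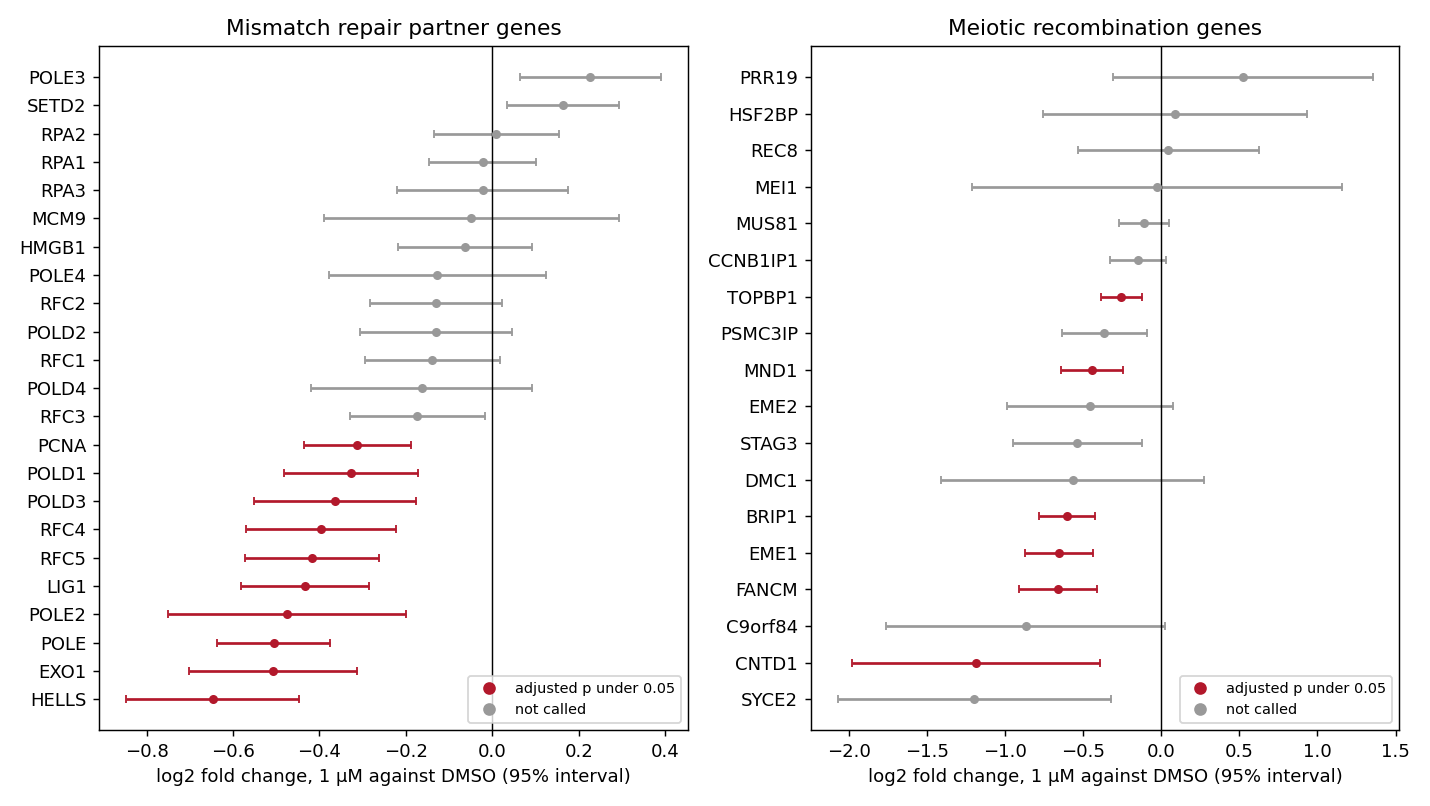
Log2 fold change at 1 μM of YK-4-279 against DMSO with the 95% interval from edgeR, for the 23 mismatch repair partner genes (left) and the 18 tested meiotic recombination genes (right); red marks an adjusted p under 0.05 and grey the others. In both panels all red points lie below 0, from -0.65 for HELLS on the left and from -1.19 for CNTD1 on the right.

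Between the doses, 4 of 17 tested meiotic genes fell (BRIP1, EME1, FANCM and MND1) and 0 rose, against 6.75% and 5.85% of all genes, and the median was -0.30. At 0.3 μM against DMSO 0 of 17 were called by edgeR and by DESeq2, and 0 had an unadjusted p under 0.05, beside 3.77% of all genes tested.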

How the data were processed

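KHM-5M RNA-seq libraries of DMSO, 0.3 μM and 1 μM of YK-4-279 (3 samples each, grouped by the labels) were compared. The authors aligned reads to GRCh38 with Hisat2 and deposited whole-number read counts per gene, without normalization, and FPKM values, which divide counts by gene length and library size. The paper names HTseq for counting, and the submitters' processing notes name HISAT2 2.0.5, featureCounts 1.5.0-p3 and DESeq2 1.20.0. The strand setting, the annotation release and the assignment of reads on shared exons are not given in the sources used here. The paper names a stranded kit, a small RNA kit and biological replicates, fewer in number than the samples, and the labels a poly(A) RNA kit and 3 samples. The labels do not tie the samples to separate cultures, so p-values measure the spread between these samples, which may be partly technical. The deposited table also holds the authors' fold changes and p-values, which were not used.

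From the counts, genes were kept by filterByExpr (minimum count 10), scaled by TMM and tested with edgeR 4.0.16 (glmQLFit, glmQLFTest, prior count 2) in R 4.3.3, each fit holding the compared groups alone. Adjustment was by Benjamini-Hochberg over all genes tested, with calls under 0.05. The fits were tested on simulated data. Alternatives were DESeq2 1.42.0, RLE scaling, no filter, 1 fit of all 9 samples, a block for the replicate number, omission of each sample in turn, overlapping and copied genes summed, and protein-coding genes only. FPKM was used for levels between genes only. Exon overlaps came from GENCODE v44 and promoter windows from RefSeq, with all 7 members matched, and Python 3.11.15 made the tables.

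Genes named are the members, the 3 largest falls called at 1 μM in each partner list (no rise was called in these lists), overlapping or divergent genes within 1000 bases, the 5 nearest profiles with a mean count of at least 10, and lists of 5 or fewer called genes. SPO11, RNF212, TEX11, HFM1, CCNB1IP1, DMC1 and the RPA genes, and the other called partner genes, were named after their values were seen. Some genes that these rules name are not reported here. The members and lists were chosen with earlier results of these data known.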

Additional observations from a re-analysis of the deposited data

Results flagged for a closer look

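The copy PMS2P10 had 7, 11 and 10 counts in DMSO, 22, 19 and 17 at 0.3 μM and 9, 4 and 1 at 1 μM. Its samples lay above the DMSO mean at 0.3 μM (edgeR, adjusted p = 0.995) and below it at 1 μM, where the counts overlapped DMSO and the filter left no test. The doses differed, with a log2 fold change of -2.01 (edgeR, adjusted p = 0.0151), which was called in 3 of 6 fits that left out 1 sample. PMS2P10 passed the filter in this comparison through its 0.3 μM samples, where it was higher, which favours a fall. PMS2P4 had 21, 21 and 23 counts in DMSO, 19, 20 and 18 at 0.3 μM and 32, 36 and 25 at 1 μM. Its samples lay below the DMSO mean at 0.3 μM and above it at 1 μM, with neither dose called against DMSO, and the log2 fold change between the doses was 0.72 (edgeR, adjusted p = 0.126). AIMP2, the divergent neighbour of PMS2, differed between the doses by 0.42 on the log2 scale (edgeR, adjusted p = 0.0179), called in 3 of 6 fits that left out 1 sample, with the highest adjusted p at 0.0824 without the first 1 μM sample.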

How the results depend on the processing

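The number of members called stayed at 0 in all 3 comparisons under each of the 13 alternatives, of 5 tested, or of 6 with DESeq2 and with a minimum count of 1. Mismatch repair partners called at 1 μM against DMSO numbered 9 to 13 with a sample left out and 10 to 11 under the other alternatives (10 as reported), and meiotic genes 4 to 6 and 5 to 7 (6 as reported). The log2 fold change of MSH5 at 1 μM lay between -1.59 and -1.55 under the alternatives that kept every sample, was -1.63 when MSH5 was summed with SAPCD1 and MSH5-SAPCD1, and ranged from -1.71 to -1.502 with a sample left out. With PMS2 and its copies summed, the log2 fold change turned to -0.048 at 0.3 μM, -0.15 at 1 μM and -0.093 between the doses, since the copies are then part of the sum. Other signs turned only for values near 0. With a sample left out, MSH3 ranged from -0.074 to 0.13 at 0.3 μM and from -0.0075 to 0.19 between the doses, and MSH6 from -0.023 to 0.079 and MLH3 from -0.020 to 0.078 at 1 μM. PMS1 between the doses ranged from -0.053 to 0.054, and was -0.017 with protein-coding genes only. The cause was not tested. With the replicate number as a block, the numbers at 1 μM were 0 members, 10 partners and 5 meiotic genes. Samples of the same number deviated together weakly at most (correlations -0.022 to 0.082 over 9 pairs, best with their own number in 8 of 18). Pairing by number was thus not clearly seen, and weak correlations cannot exclude it. At 59 to 209 counts for MSH5 and 160 to 233 for PMS2, small changes of these genes were measured with wide intervals.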

Other observations

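MEI4, a factor of meiotic break formation, had 15, 7 and 15 counts in DMSO, 9, 5 and 6 at 0.3 μM and 2, 6 and 1 at 1 μM, and it did not pass the filter. MAEL, a germ cell marker, had 6 to 19 counts per sample. Between the doses, C6orf48 was the only gene around MSH5 called as lower, by 0.39 on the log2 scale (edgeR, adjusted p = 0.0326). Its groups overlapped, the call was kept in 2 of 6 fits that left out 1 sample, and DESeq2 gave an adjusted p of 0.199. SAPCD1 had a larger fitted fall, with a log2 fold change of -1.37, but was not called (edgeR, adjusted p = 0.0555).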
